A study of Mus musculus with 17 samples.

Results

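The effect of Gnl3 siRNA on the enrichment of mRNAs at ribosomes of the endoplasmic reticulum (ER) was taken as an interaction. For each gene it is the log2 ratio of ER ribosome-bound to whole-cell RNA after Gnl3 siRNA, minus the same ratio after scramble siRNA. A value of 0 means that an mRNA changed equally in both fractions, and a negative value means that it lost ground on ER ribosomes relative to the cell. The 11 libraries of the scramble and Gnl3 siRNA groups were chosen by their labels, out of 17 in the series. All come from E14Tg2a.4 mouse embryonic stem cells with a FLAG-TEV-AviTag on ribosomal protein Rpl31 (Rpl31-FTA), grown in serum with leukemia inhibitory factor. In every group ribosomes at the ER were marked with ALIBi, a proximity biotinylation system, and purified, and whole-cell RNA came from the same lysates before purification. Scramble siRNA has 3 whole-cell libraries (replicates 1, 2 and 3) and 2 ER ribosome-bound libraries (replicates 2 and 3; replicate 1 was not analysed here). Gnl3 siRNA has 3 libraries in each fraction, all labelled as biological replicates. The submitters' label of Gnl3 whole-cell replicate 3 says that they left it out of their own analysis as an outlier. The fit used throughout therefore has 10 libraries. Many results are also given with that library, but not all whose sign or call changes with it. A value given only for the 10 libraries may thus change sign or lose its call with it.

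Gnl3 encodes nucleostemin, a nucleolar GTP-binding protein that takes part in assembly of the large ribosomal subunit and is abundant in stem cells. Its loss is known to stress the nucleolus and to activate p53. Ribosomes at the ER translate mostly mRNAs of secreted, membrane and lumenal proteins, which signal recognition particle brings to the translocon, and they also hold mRNAs of cytosolic proteins. A change in how much of an mRNA the cell holds cancels in the interaction where it moves both fractions equally. Among the changes that would remain are one in where an mRNA is translated and one in its ribosome loading throughout the cell. These cannot be told apart without ribosomes from the rest of the cell.

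The 1 mRNA whose interaction passed the test, Ftl1, and its partner Fth1 encode the subunits of the iron store ferritin. Both carry in the 5′ leader an iron-responsive element, the stem-loop that iron regulatory proteins bind to block ribosome loading. The elements are shown because they are the best known translational control sites of these mRNAs. They were found in the GENCODE M21 transcripts (GRCm38) by a search of annotated 5′ leaders on the sense strand for an unpaired C, 5 paired bases, the loop CAGTG with 1 further base, and the 5 bases that pair back. Capitals mark the loop letters:
Ftl1 (chromosome 7): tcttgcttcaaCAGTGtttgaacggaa
Fth1 (chromosome 19): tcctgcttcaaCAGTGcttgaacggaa
Slc40a1 (chromosome 1): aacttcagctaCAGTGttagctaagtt
The Ftl1 element lies at bases 79 to 105 of a 253-base leader. Slc40a1, the iron exporter ferroportin, is shown as a further carrier. Of 13941 tested genes with an annotated leader, 27 held such an element, or 0.194%. Their median interaction was 0.01, with 2 lower and 3 higher at an unadjusted p under 0.05. The 2 lower were Ftl1 and Fth1, the genes that prompted the search, so they are no separate result. The 3 higher were Pdgfa, Nudt12 and Alas2, the last at 3.43 (SE 1.2) with only 0.054 to 0.79 CPM. The part of the element in the values of Ftl1 and Fth1 was not tested.

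Only 1 mRNA passed the test for a shift between the fractions after Gnl3 siRNA. Among 17911 genes tested, edgeR called 1 at an adjusted p under 0.05, Ftl1, which is 0.00558%. At an unadjusted p under 0.05 there were 1060 genes (5.92%), 518 lower (2.89%) and 542 higher (3.03%). DESeq2 also called Ftl1 and no other gene, with 667 at an unadjusted p under 0.05. The median interaction over all genes was 0.01. With Gnl3 whole-cell replicate 3 in the fit edgeR called 0 genes of 18107, and 295 had an unadjusted p under 0.05 (1.63%). That library stood apart: chi-square per gene against the other Gnl3 whole-cell libraries was 133 and 150, where other pairs within these groups gave 2.1 to 4.1, 6.14% of its counts were mitochondrial against 1.86% to 2.03%, and with it the biological coefficient of variation went from 0.0424 to 0.183. Depth ran from 15198736 to 29904256 gene counts per library.

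Ftl1, the ferritin light chain, fell on ER ribosomes and not in whole-cell RNA. Levels are given as CPM, gene counts scaled to the same total in each library. In whole-cell RNA the scramble libraries had 566.5, 557.2 and 556 CPM of Ftl1, and Gnl3 replicates 1 and 2 had 583.3 and 585.1 CPM. On ER ribosomes it was at 475.6 and 475.2 CPM after scramble siRNA and at 363.3, 408.2 and 384.7 CPM after Gnl3 siRNA. The Gnl3 libraries were thus the lower ones on ER ribosomes and the higher ones in whole-cell RNA, with no overlap in either fraction among these 10 libraries. Here and below, groups this small can lie apart by order alone. Most genes so described were picked by a small p or a large change, so the order is no separate support. The share of all genes that lie apart is not given here. The interaction was -0.37 (SE 0.055, 95% confidence interval -0.49 to -0.26, edgeR adjusted p = 0.000161), with a change of -0.31 on ER ribosomes (adjusted p = 5.03e-08) and 0.06 in whole-cell RNA (adjusted p = 0.575). It stayed called without each of the 10 libraries in turn (-0.43 to -0.33, adjusted p = 3.13e-06 to 0.0382). In 4 of these fits, the one with the largest p among them, a group was left with 1 library, which is then assumed to vary like the other groups.

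The call on Ftl1 does not hold with Gnl3 whole-cell replicate 3, where Ftl1 was at 42.25 CPM. With that library the interaction was 0.16 (SE 0.94, adjusted p = 0.972), a change of sign. The call was also lost when the Nmd3 siRNA libraries joined the fit without the 2 whole-cell libraries that stood apart (-0.38, SE 0.1, adjusted p = 1). Ftl1 overlaps Gm10252 on the opposite strand, and the strand setting of the counting is not given in the sources used here, so reads of that locus cannot be told apart. Gm10252 had an interaction of -0.25 (SE 0.056, adjusted p = 0.153) and was at 28.23 CPM in the library that stood apart against 412.1 to 429 CPM in the other whole-cell libraries. Ftl1 also has near-identical copies, and reads shared with them may have been lost as not unique, so its level is uncertain. The pseudogene Ftl2-ps had an interaction of -0.21 (adjusted p = 0.402).

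**Figure D1:**
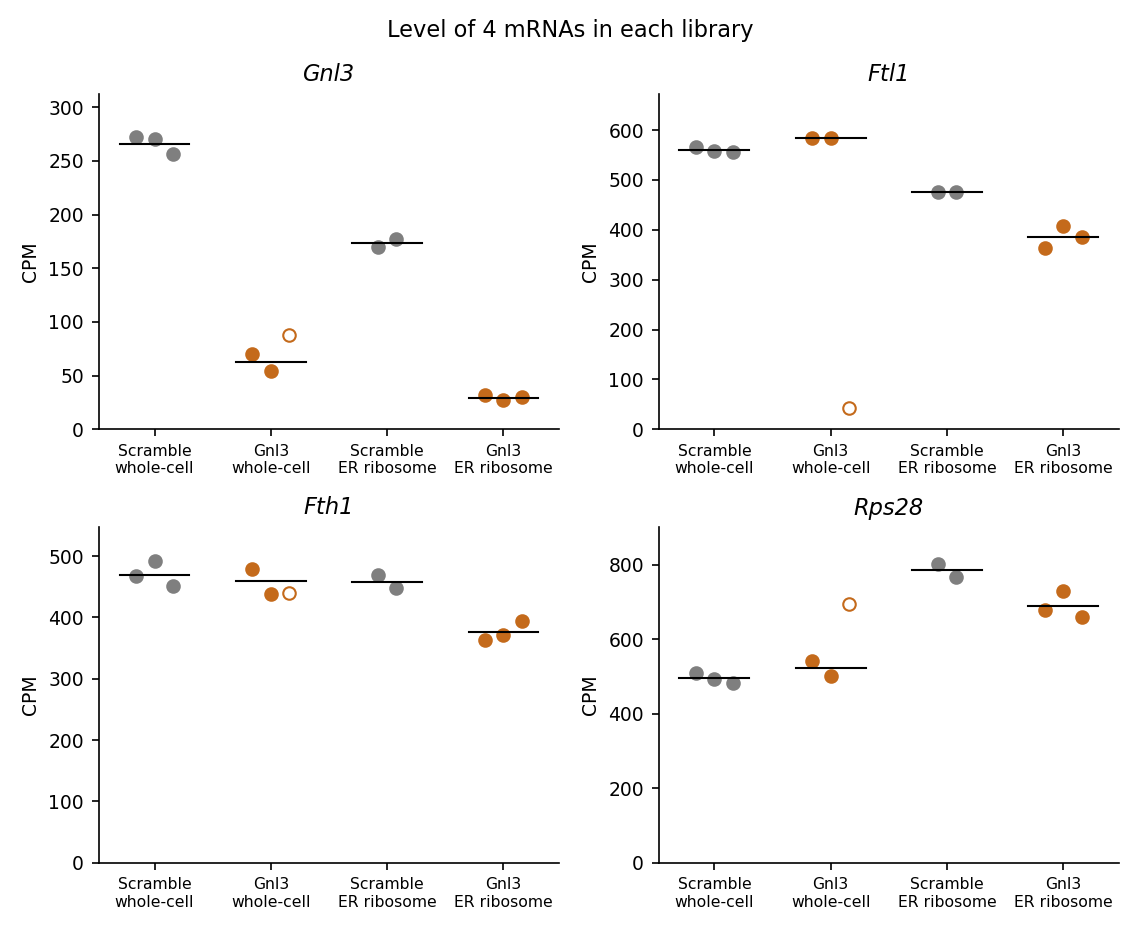
Levels of Gnl3, Ftl1, Fth1 and Rps28 in CPM (vertical axes, from 0) in each library, by siRNA and fraction; bars are means, and the open circle is Gnl3 whole-cell replicate 3, which is left out of the means. On ER ribosomes the 3 Gnl3 libraries sit below both scramble libraries for all 4 genes, while for Ftl1 the open circle at 42.25 CPM is far below every other library.

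Fth1, the ferritin heavy chain, went the same way without passing the test of the interaction. Its whole-cell levels were 467.8, 491.4 and 450.8 CPM with scramble and 479.7, 439.1 and 439.7 CPM with Gnl3 siRNA. On ER ribosomes it was at 468.6 and 448.2 CPM after scramble siRNA, and at 363.9, 371.6 and 394.1 CPM after Gnl3 siRNA. The whole-cell groups overlapped and the ER groups did not. Its interaction was -0.26 (SE 0.06, adjusted p = 0.156), and -0.28 with Gnl3 whole-cell replicate 3, where Fth1 was not low. On ER ribosomes it fell by 0.29 (adjusted p = 1.81e-06).

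The other iron genes described here, listed after Ftl1 was seen to be called, had interactions within their errors of 0. Tfrc, the transferrin receptor that takes up iron, rose in both fractions, by 0.26 on ER ribosomes (adjusted p = 1.43e-05) and 0.24 in whole-cell RNA (adjusted p = 0.000102), and its interaction was 0.02 (SE 0.059). Slc11a2, a divalent metal transporter, had an interaction of 0.07 (SE 0.089). The iron regulatory proteins Aco1 (0.06, SE 0.086) and Ireb2 (0.04, SE 0.064), and Fbxl5, which directs Ireb2 to degradation (0.07, SE 0.086), were within their errors of 0. So were the ferritin autophagy receptor Ncoa4 (0.01, SE 0.11) and heme oxygenase Hmox1 (0.02, SE 0.075). Epas1, known for an iron-responsive element that the search above did not find, had -0.03 (SE 0.1), and Slc40a1 -0.22 (SE 0.3, at 2.67 to 4.495 CPM, too low to measure a shift of this size).

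Gnl3 itself fell in both fractions. Whole-cell levels were 272, 270.1 and 256 CPM with scramble and 70.2, 54.22 and 88.21 CPM with its own siRNA. On ER ribosomes it went from 170 and 177.4 CPM to 31.58, 26.89 and 29.69 CPM. The fall was 2.10 on the log2 scale in whole-cell RNA (adjusted p = 1e-12) and 2.58 on ER ribosomes (adjusted p = 5.78e-15). The interaction was -0.48 (SE 0.11, adjusted p = 0.356). It was called in 4 of the 21 alternatives, among them the fit that takes the culture as a block (-0.49, adjusted p = 0.000895). It ran from -0.66 without Gnl3 whole-cell replicate 2 to -0.28 without replicate 1, and was -0.72 with replicate 3. Gnl3 overlaps Pbrm1 on the opposite strand. Nmd3, the export adaptor of the large subunit, had an interaction of 0.04 (SE 0.066, adjusted p = 0.981), and -0.39 with Gnl3 whole-cell replicate 3, where it was at 273.7 CPM against 142.2 to 153.8 CPM in the other whole-cell libraries.

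The 10 libraries bound most interactions tightly. Over the 9787 genes at a mean of at least 10 CPM the median SE was 0.101. The whole 95% confidence interval lay within 1.5-fold of no change for 96.9% of them, and within 1.25-fold for 61.4%. At 100 CPM or more, 95.8% of 2254 genes lay within 1.25-fold. Only 3 of the 9787 genes had an estimate past 1.5-fold, among them the cullin adaptor Armc5 (0.60) and Gm13340 (0.94), and none of the 3 was called. From 1 to 10 CPM 60.1% of 5473 genes lay within 2-fold, and under 1 CPM 0.226% of 2651 did, so a shift of 2-fold was not detectable for most of the latter.

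**Figure D2:**
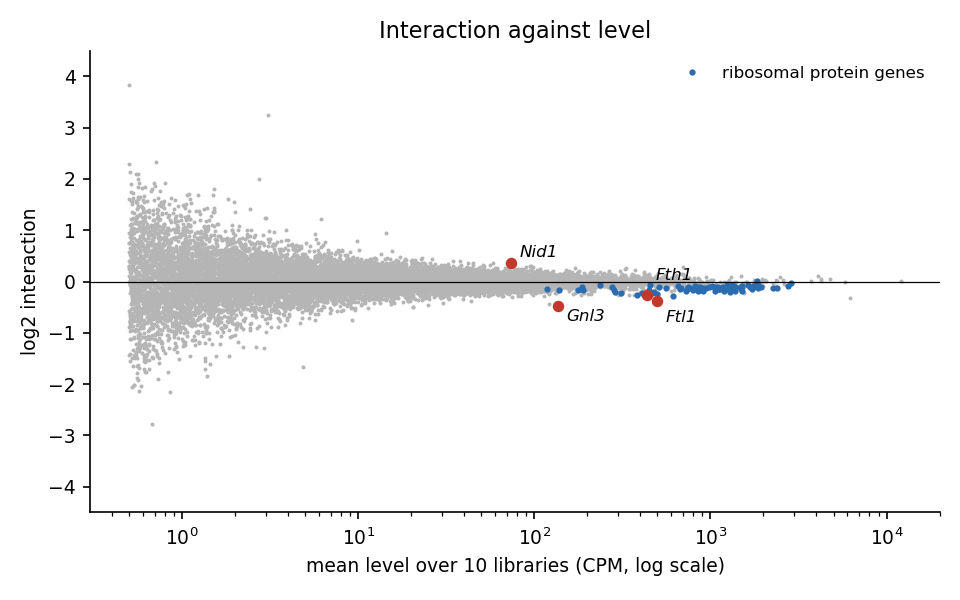
Log2 interaction (vertical axis) against mean level over the 10 libraries (CPM, log scale) for genes at a mean of at least 0.5 CPM; blue points are ribosomal protein genes and red points are named genes. The spread narrows with level, Ftl1, Fth1 and Gnl3 lie below 0 and Nid1 above it, and the blue points form a band just below 0.

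Many of the mRNAs called on ER ribosomes after Gnl3 siRNA also differed in the same direction in whole-cell RNA. In the same fit 1048 genes were called on ER ribosomes (594 higher, 454 lower; 5.85%) and 383 in whole-cell RNA (209 higher, 174 lower; 2.14%). The 269 called in both had the same direction in both; they are 25.7% of the first list and 70.2% of the second. Of the 1048, 945 (90.2%) had the same sign in whole-cell RNA, where most did not pass the test; over all genes tested 61.9% had the same sign in both fractions. Among the 1162 genes called in either fraction, 316 (27.2%) had an unadjusted interaction p under 0.05, and 1 was called. Pearson's r between the 2 changes was 0.6 over the 9787 genes (Spearman's rho 0.48), as a description across genes. With Gnl3 whole-cell replicate 3 in the fit edgeR called 1 gene on ER ribosomes and 1 in whole-cell RNA, since its spread enters the error of every contrast.

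**Figure D3:**
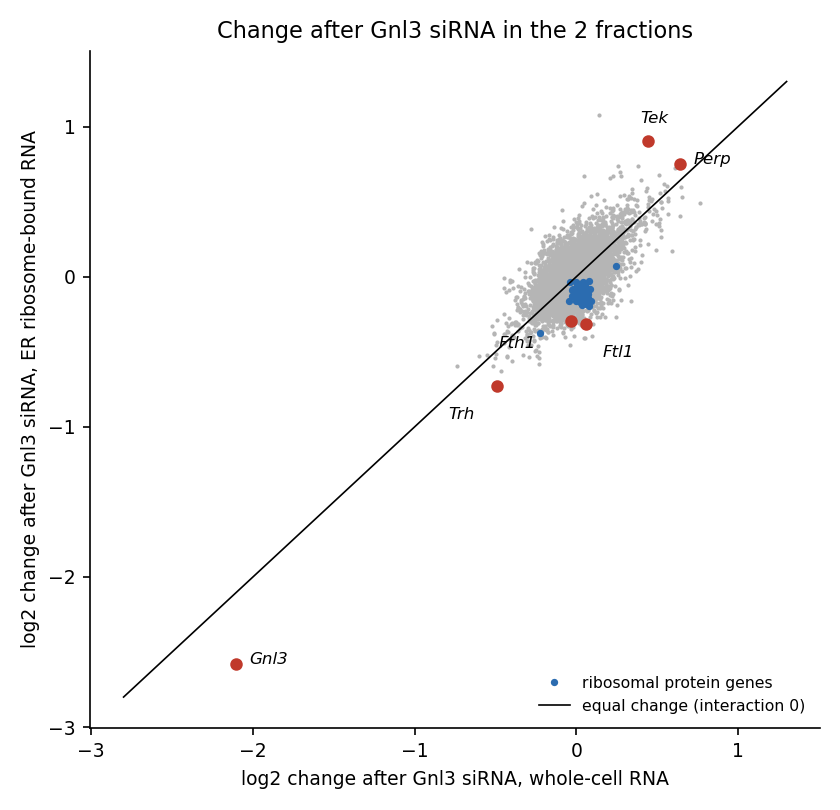
Log2 change after Gnl3 siRNA in whole-cell RNA (horizontal axis) against ER ribosome-bound RNA (vertical axis) for genes at a mean of at least 10 CPM; the line marks an equal change in both. Gnl3, Trh, Perp and Tek moved in the same direction in both fractions, and the blue ribosomal protein genes lie mostly below the line.

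Several of the genes that differed most on ER ribosomes, named after their values were seen, show this. Perp, a p53-induced membrane protein of desmosomes, rose from 96.43 and 90.9 to 166.6, 157.1 and 152.7 CPM on ER ribosomes, and from 38.53 to 41.16 CPM to 61.3 to 66.29 CPM in whole-cell RNA. Its changes of 0.75 and 0.64 left an interaction of 0.11 (SE 0.079). Trh, the thyrotropin-releasing hormone precursor, fell from 375.9 and 373.2 to 215.2, 237.1 and 231 CPM on ER ribosomes, and from 132.8 to 135.9 CPM to 67.33 to 101.1 CPM in whole-cell RNA. Its groups did not overlap in either fraction, and the falls of 0.73 and 0.49 gave an interaction of -0.23 (SE 0.066, adjusted p = 0.383). The small GTPase Rhob changed by 0.68 and 0.51 and the phospholipid-binding Anxa1 by 1.03 and 0.88, with interactions of 0.17 (SE 0.093) and 0.15 (SE 0.22). Tek, the angiopoietin receptor, was at 10.14 and 10.15 CPM on scramble ER ribosomes and at 21.22, 18.16 and 18 CPM after Gnl3 siRNA, while whole-cell RNA went from 7.718 to 8.298 CPM to 10.93 to 11.12 CPM. The Tek interaction of 0.46 (SE 0.17) and that of the membrane protein Emp1 of 0.43 (SE 0.13) did not pass (adjusted p = 0.741 and 0.435).

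Targets of p53 and of ATF4 moved in both fractions. For comparison, of all 17911 genes tested 594 were called higher and 454 lower on ER ribosomes (5.85% in all). In whole-cell RNA 209 were called higher and 174 lower (2.14% in all). Of 55 p53 targets 27 were called higher and 1 lower on ER ribosomes, and 26 higher and 0 lower in whole-cell RNA, with median changes of 0.20 and 0.22. Their median interaction was -0.03, with 2 higher and 3 lower at an unadjusted p under 0.05. The ubiquitin ligase Mdm2, which degrades p53, rose by 0.35 and 0.41 (interaction -0.06, 95% confidence interval -0.20 to 0.08, and -0.37 with Gnl3 whole-cell replicate 3), and Trp53inp1 by 0.46 and 0.53 (-0.07, -0.21 to 0.07). The p53 target with the smallest p was Rps27l, a ribosomal protein paralog, which rose by 0.24 in whole-cell RNA (adjusted p = 0.000191) and was at 0.07 on ER ribosomes (adjusted p = 0.381), with an interaction of -0.17 (SE 0.061, adjusted p = 0.718), or -0.0799 and -0.26 without Gnl3 whole-cell replicates 1 and 2. Of 46 ATF4 targets, which serve amino acid supply in the integrated stress response, 26 were called lower and 1 higher on ER ribosomes and 22 lower and 1 higher in whole-cell RNA, with medians of -0.16 and -0.21 and a median interaction of 0.02. Psat1 and Phgdh, enzymes of serine synthesis, fell by 0.33 and 0.34 on ER ribosomes and by 0.34 and 0.35 in whole-cell RNA, with interactions of 0 (95% confidence interval -0.11 to 0.12) and 0.01 (-0.13 to 0.14). With Gnl3 whole-cell replicate 3 these were -0.09 and 0.34. The tRNA synthetase Iars fell in whole-cell RNA by 0.21 (adjusted p = 0.000566) and had an interaction of 0.14 (adjusted p = 0.741), or -0.03 with Gnl3 whole-cell replicate 3. Heat shock proteins (30 tested) had a median interaction of 0.02, and Hspb1, a small chaperone, rose on ER ribosomes by 0.29 (adjusted p = 1.94e-07) with an interaction of 0.17 (adjusted p = 0.488).

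No member of the 38 gene lists was called for the interaction by edgeR with the filter and design used throughout, or by DESeq2. Members were called with a block (Gnl3, Rps28), without a filter on low counts (Nid1, Cox7c, Rps28, Rps29 and Gnl3) and in 3 of the fits that leave out 1 library. Each list is therefore described by its median and by its members at an unadjusted p under 0.05, beside 2.89% lower and 3.03% higher over all genes tested. Counts above or below 0 stand beside 9355 of all genes tested above 0 and 8556 (47.8%) below 0. The lists were chosen with earlier results of these data known. With Gnl3 whole-cell replicate 3 several medians changed sign. They became 0.04 for p53 targets, -0.04 for heat shock proteins, -0.11 for mitosis genes and 0.09 for pluripotency factors. For small-subunit processome and assembly factors the median became -0.07, and for interferon response genes 0.11. When 1 library was left out, 31 of the 38 medians moved by over 1.5 times or changed sign. The 7 that did neither were those of large-subunit and small-subunit ribosomal proteins, respiratory chain subunits, mitochondrial ribosomal proteins, ER chaperones, Golgi proteins and solute carriers. The other medians are given as descriptions that single libraries move. Adding Gnl3 whole-cell replicate 3 moved some of the 7 as well. The small-subunit and respiratory chain medians changed sign, to 0.00815 and 0.0134. That of mitochondrial ribosomal proteins became -0.00428, beside 0.0336 for all genes.

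Cytosolic ribosomal proteins were the list that lay most uniformly below 0, by a small amount. Of 49 large-subunit mRNAs 48 were below 0 and 33 were lower at an unadjusted p under 0.05, with a median of -0.12. Of 33 small-subunit mRNAs all 33 were below 0 and 26 were lower at that p, with a median of -0.13. Their median change was -0.11 and -0.10 on ER ribosomes, where 20 and 10 were called lower and 0 higher, and 0.03 and 0.04 in whole-cell RNA, where 1 was called lower (Rpl22l1) and 1 higher (Rps27l, a p53 target). Of all 17911 genes tested 454 were called lower and 594 higher on ER ribosomes, and 174 and 209 in whole-cell RNA.

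Rps28, a component of the small subunit, had the smallest p among them. It was at 802.7 and 766.8 CPM on scramble ER ribosomes and at 677.2, 728.7 and 659 CPM after Gnl3 siRNA. In whole-cell RNA it was at 509.3, 493.1 and 481.6 CPM after scramble siRNA and at 542.5 and 502.1 CPM after Gnl3 siRNA, or 693.8 CPM in replicate 3. The ER groups did not overlap and the whole-cell groups did. The interaction was -0.28 (SE 0.057, adjusted p = 0.102; it overlaps Kank3 on the opposite strand). Rpl36a of the large subunit followed with -0.24 (SE 0.059, adjusted p = 0.332), from 640.9 and 617.3 CPM to 534.9, 584.3 and 559.1 CPM on ER ribosomes. Rpl39 was at -0.21 and Rpl35a at -0.20. The tagged Rpl31 was at -0.09 (SE 0.056), and Rpl6 (0.003) was the 1 member above 0. Ribosomal protein genes have many processed copies, so reads that are not unique may be missing from these counts.

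Within cultures the ribosomal protein mRNAs of the scramble and Gnl3 groups lay close together. The median log2 ratio of ER ribosome-bound to whole-cell RNA over the 82 mRNAs was 0.42 and 0.50 in scramble cultures 2 and 3, and 0.28 and 0.41 in Gnl3 cultures 1 and 2. Gnl3 culture 2 thus came within 0.01 of scramble culture 2. In Gnl3 culture 3, whose whole-cell library stood apart, the ratio was 0.66, above both scramble cultures. The median interaction over both lists ran from -0.16 to -0.09 over the 19 settings without that library, and was -0.04 with it in the fit without a block. With it the large-subunit median was -0.08 and that of the small subunit 0.01. Without scramble whole-cell replicate 2, edgeR called 37 genes in all, and 13 of the 29 lower ones were ribosomal protein genes.

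Other genes of ribosome production had medians from -0.15 to 0. Of 74 nucleolar GTPases and factors of large-subunit assembly and export 4 were lower and 0 higher at an unadjusted p under 0.05 (median -0.02), the lowest p being that of Gnl3 itself. The 58 small-subunit processome and assembly factors had a median of 0, with 1 lower. The 20 RNA polymerase I mRNAs had a median of -0.08, with 4 lower, and Polr2f, a subunit shared by the polymerases, at -0.21 (SE 0.074), or 0.11 with Gnl3 whole-cell replicate 3. The 52 translation factors had -0.01, with 3 higher and 2 lower. The 17 snoRNA host genes, whose introns hold small nucleolar RNAs and whose spliced RNAs are ribosome-bound, had a median of -0.15 (15 below 0, 3 lower), or -0.07 and -0.25 without Gnl3 whole-cell replicates 1 and 2. Snhg8 among them was at 26.23 and 23.32 CPM on scramble ER ribosomes and 18.05, 18.33 and 20.82 CPM after Gnl3 siRNA, with overlapping whole-cell groups and an interaction of -0.49 (SE 0.14, adjusted p = 0.383).

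Nuclear-encoded mitochondrial proteins lay below 0 as well. Of 76 respiratory chain mRNAs 71 were below 0, 21 were lower and 0 higher at an unadjusted p under 0.05, and the median was -0.08. Cox7c, a small subunit of cytochrome c oxidase, was at 437.9 and 430.4 CPM on scramble ER ribosomes and at 383.4, 403 and 386.6 CPM after Gnl3 siRNA, while whole-cell levels were 259.9 to 283.8 CPM with scramble and 296.5 and 288.1 CPM in Gnl3 replicates 1 and 2. The ER groups did not overlap; the whole-cell groups overlapped only through Gnl3 replicate 3, at 283.3 CPM. Its interaction was -0.26 (SE 0.058, adjusted p = 0.153), and -0.28 with Gnl3 whole-cell replicate 3. Of 75 mitochondrial ribosomal proteins 59 were below 0 and 9 lower (median -0.08), with Mrpl34 at -0.29 (SE 0.092). With Gnl3 whole-cell replicate 3 these medians were 0.01 and -0.00428, beside 0.03 for all genes in that fit. The 11 mitochondrially encoded mRNAs, which ER ribosomes do not translate, had a median of 0.12. It was -0.07 without Gnl3 ER ribosome-bound replicate 1 and -0.67 with the library that stood apart, in which mt-Co1 was at 23330 CPM against 7748 to 8326 CPM in the other whole-cell libraries.

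mRNAs from lists made up mostly of proteins that enter the ER lay slightly above 0. Over 522 mRNAs of 10 lists the median interaction was 0.06, with 376 above 0, 50 higher and 5 lower at an unadjusted p under 0.05. Without the cholesterol and fatty acid list, which also holds cytosolic enzymes, it was 0.06 over 485 mRNAs, a check added after seeing the data. All 10 lists had a median above that of all genes in the 10-library fit. The median ER to whole-cell ratio of the 522 was 0.58 and 0.56 in scramble cultures 2 and 3, 0.66 and 0.64 in Gnl3 cultures 1 and 2, and 0.97 in Gnl3 culture 3. Gnl3 cultures 1 and 2 thus lay above both scramble cultures. List by list this held for secreted, N-glycan and anchor synthesis, Golgi, lysosomal, receptor and adhesion, and cholesterol and fatty acid mRNAs. It did not hold for ER chaperones, V-ATPase membrane subunits, solute carriers, or signal recognition particle, translocon and insertion mRNAs. In Gnl3 culture 3, whose whole-cell library stood apart, the median ratio over all genes tested was also higher. It was 0.26 there, against 0.04 and 0.05 in the scramble cultures and 0.05 and 0.06 in Gnl3 cultures 1 and 2. Over the 19 settings without the library that stood apart the median ran from 0.04 to 0.08, and with it from 0.12 to 0.13.

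**Figure D4:**
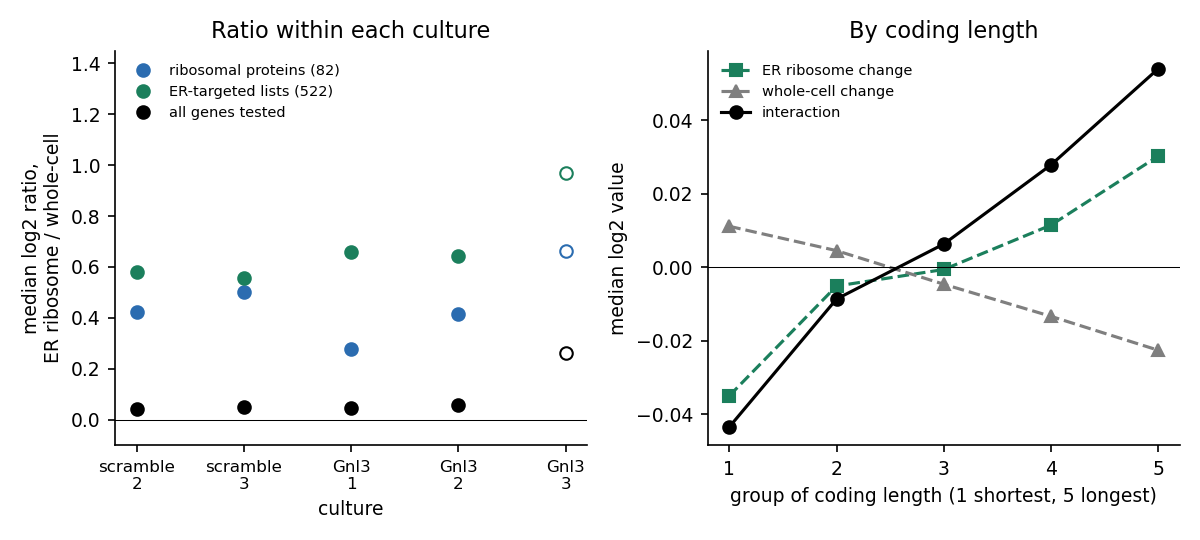
Left, median log2 ratio of ER ribosome-bound to whole-cell RNA in each culture for ribosomal protein mRNAs, ER-targeted mRNAs and all genes tested (open circles: Gnl3 culture 3, whose whole-cell library stood apart). Right, median log2 change in each fraction and median interaction in 5 equal groups of genes by coding length; the interaction goes from -0.04 in the shortest group to 0.05 in the longest.

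Among cell-surface proteins, 67 of 84 plasma membrane receptors and adhesion mRNAs were above 0 (10 higher and 0 lower at an unadjusted p under 0.05, median 0.08). Plxnb2, a semaphorin receptor, was at 79.97 and 84.29 CPM on scramble ER ribosomes and 117, 111.7 and 112.6 CPM after Gnl3 siRNA. Whole-cell levels were 73.56 to 88.41 CPM with scramble, and 91.45, 101.4 and 58.89 CPM with Gnl3 siRNA. The ER groups did not overlap, and in whole-cell RNA only Gnl3 replicate 3 was below the scramble libraries. The interaction was 0.23 (SE 0.082, adjusted p = 0.693). Of 66 solute carriers and ion transporters 50 were above 0 (12 higher, 0 lower, median 0.07). The amino acid transporter Slc43a1 fell in whole-cell RNA by 0.41 (adjusted p = 0.0117) and was at -0.02 on ER ribosomes (interaction 0.39, SE 0.14, adjusted p = 0.682). The glucose transporter Slc2a1 rose on ER ribosomes by 0.27 (adjusted p = 7.73e-07) and had an interaction of 0.14 (SE 0.054). V-ATPase membrane subunits (9 tested) had a median of 0.06, with 2 higher and Atp6v0a1 at 0.32 (SE 0.1, adjusted p = 0.482), or 0.20 and 0.48 without Gnl3 whole-cell replicates 1 and 2.

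Of 38 cholesterol and fatty acid synthesis mRNAs, which code for ER membrane enzymes and their regulators and also for cytosolic enzymes, 32 were above 0 (4 higher, 0 lower, median 0.08). On ER ribosomes 14 were called higher and 0 lower, and in whole-cell RNA 4 and 0. Of all 17911 genes tested 594 were called higher and 454 lower on ER ribosomes, and 209 and 174 in whole-cell RNA. Insig1, the sterol-sensing ER retention factor, rose by 0.42 on ER ribosomes (adjusted p = 4.67e-07) and by 0.30 in whole-cell RNA (adjusted p = 0.00246), with an interaction of 0.12. Its paralog Insig2 had an interaction of 0.37 (SE 0.13, adjusted p = 0.71), or 0.54 and 0.21 without Gnl3 whole-cell replicates 1 and 2. Golgi enzymes (64 tested) had a median of 0.07, with 4 higher and Mgat2 at 0.27 (SE 0.11), and lysosomal proteins (61) 0.04, with 3 higher and Gm2a at 0.31 (SE 0.12); the lysosomal median was 0.00125 and 0.106 without Gnl3 whole-cell replicates 1 and 2.

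The secretory machinery itself had few members at that p. ER chaperones and unfolded protein response genes (43 tested) had a median of 0.06, with 1 higher, the collagen prolyl isomerase Fkbp10 at 0.20 (SE 0.096). The 47 mRNAs of signal recognition particle, translocon and insertion had 0.04, with 1 higher and 3 lower, among the latter the small translocon subunit Sec61g at -0.18 (SE 0.071), or 0.07 with Gnl3 whole-cell replicate 3. The 53 of N-glycan and membrane anchor synthesis had 0.04, with 2 higher and 1 lower, and Dpagt1, which starts the N-glycan, at 0.36 (SE 0.13, adjusted p = 0.682).

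Secreted and matrix proteins varied widely. Of 58 mRNAs 11 were higher and 1 lower at an unadjusted p under 0.05, the latter Trh, and the median was 0.03; without Gnl3 ER ribosome-bound replicate 2 it was 0. Nid1, the basement membrane linker nidogen, was at 69.18 and 69.11 CPM on scramble ER ribosomes and at 79.96, 85.84 and 93.06 CPM after Gnl3 siRNA. Whole-cell levels were 65.6 to 70.86 CPM with scramble, and 65.93 and 65.8 CPM in Gnl3 replicates 1 and 2, so the ER groups did not overlap while the whole-cell groups did. Its interaction was 0.36 (SE 0.084, adjusted p = 0.156), and 0.19 with Gnl3 whole-cell replicate 3; it overlaps Gm48682 on the opposite strand. Col4a1, the collagen of the same membrane, was at 0.44 (SE 0.13, adjusted p = 0.435) and the laminin chain Lamc1 at 0.24 (SE 0.097).

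**Figure D5:**
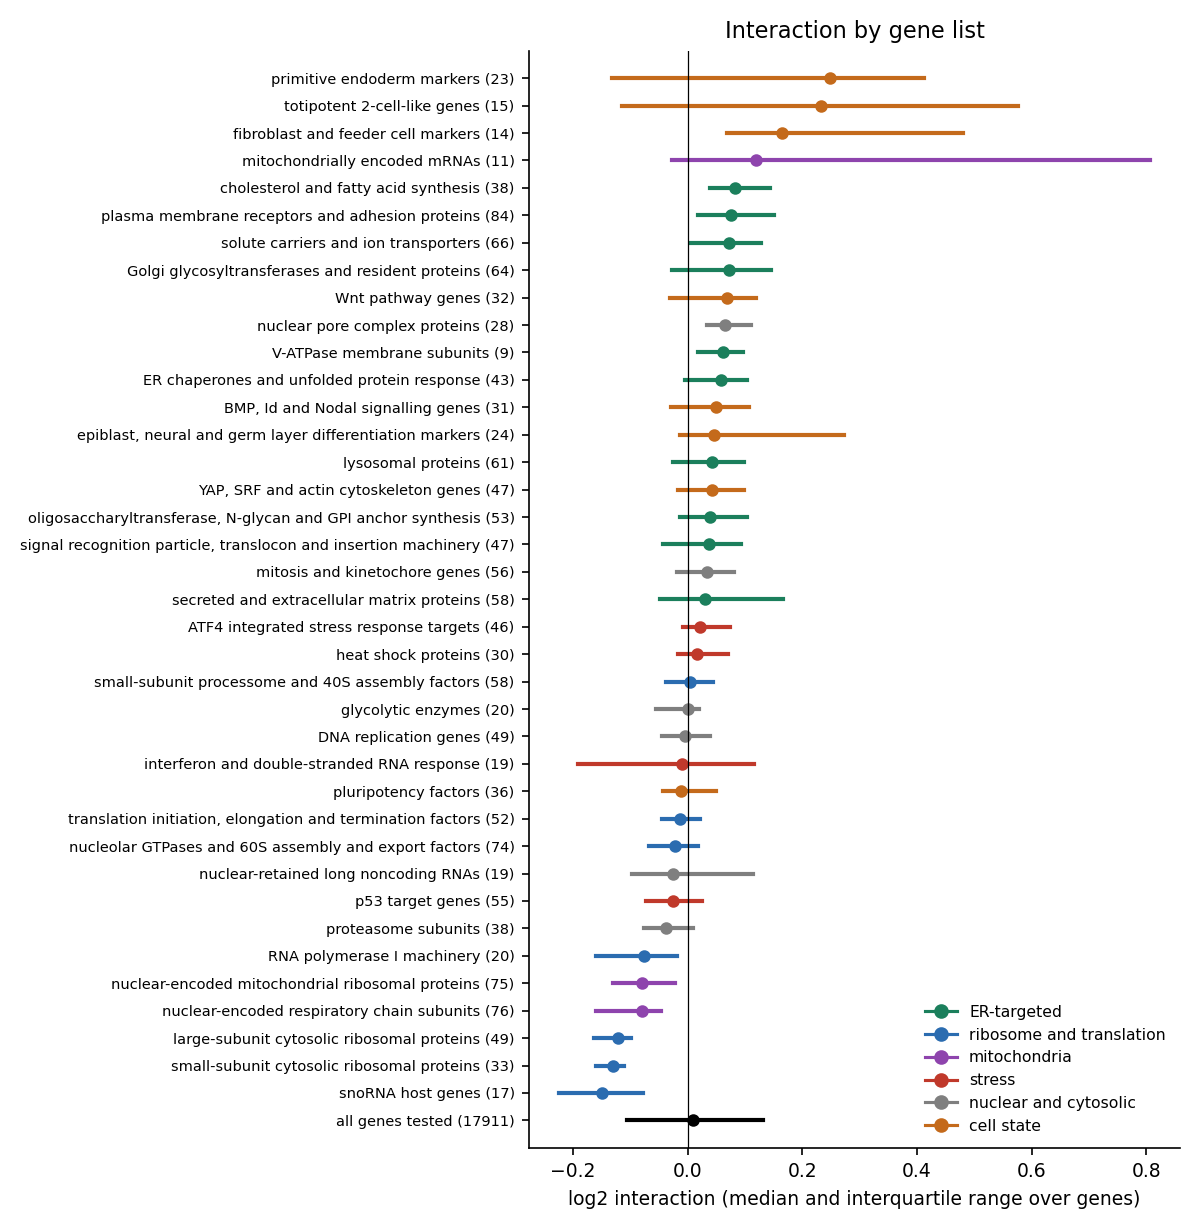
Median log2 interaction (points) and interquartile range over genes (bars) for each of the 38 lists, with the number of genes tested in brackets, and for all genes tested at the bottom. Ribosomal protein, snoRNA host, respiratory chain and mitochondrial ribosomal protein lists lie to the left of 0 and the ER-targeted lists to the right; the 4 lists at the top hold 11 to 23 genes each and have wide ranges.

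Basement membrane genes also make up much of the primitive endoderm list, which had a median of 0.25 over 23 mRNAs, with 6 higher (Col4a1, Fst, Lamc1, Lrp2, Gata6 and Sparc) and 0 lower at an unadjusted p under 0.05. Without scramble ER ribosome-bound replicate 2 it was 0.12, and without replicate 3 it was 0.31. Markers of primitive endoderm were low: summed over 7 genes, levels were 14.9 to 18.4 CPM in scramble and 17.1 to 17.9 CPM in Gnl3 whole-cell RNA, and 10.1 to 11.2 and 11.7 to 13.3 CPM on ER ribosomes. In bulk samples fewer cells of a type and less RNA per cell cannot be told apart. Embryonic stem cell markers (10 genes) summed to 6297 to 6476 CPM in scramble and 5820 to 6168 CPM in Gnl3 whole-cell RNA, but 3551 CPM in Gnl3 whole-cell replicate 3, and on ER ribosomes to 8033 to 8231 and 7224 to 7496 CPM. Fibroblast or feeder cell markers, 6 of 8 under 1 CPM in all 11 libraries, summed to 7.14 to 7.39 CPM on scramble and 9.4 to 10.2 CPM on Gnl3 ER ribosomes, and to 4.37 to 6.78 CPM in whole-cell RNA. Neural markers summed to 132.3 to 133.6 and 117.5 to 127.6 CPM on ER ribosomes, and in whole-cell RNA to 147.8 to 150.6 CPM with scramble and 131.6 to 137.7 CPM with Gnl3 siRNA, or 85 CPM in replicate 3. None of these markers was at 0 throughout. On ER ribosomes the groups did not overlap for any of the 4 marker sets. Stem cell and neural sums were lower there and fibroblast and primitive endoderm sums higher after Gnl3 siRNA. In whole-cell RNA the fibroblast and primitive endoderm sums overlapped. With 2 scramble and 3 Gnl3 libraries, groups can lie apart by order alone, and the share of all genes that do so is not given here. The part of these markers in the values of the lists was not tested. Pluripotency factors (36 tested) had a median interaction of -0.01, with 1 higher and 2 lower.

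Nuclear and cytosolic lists lay on both sides of 0. The nuclear pore mRNAs (28 tested) had a median of 0.07, with 25 above 0 and 4 higher, and -0.01 with Gnl3 whole-cell replicate 3. Mitosis genes (56) had 0.03, with 6 higher and 1 lower, among the former the spindle protein Hmmr at 0.25 (SE 0.083), or -0.18 with that library. DNA replication genes (49) had a median of 0, proteasome subunits (38) -0.04 with 3 lower and 0 higher, and glycolytic enzymes (20) 0.

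The interaction went with the length of the coding sequence, which the contrast did not use. In 5 equal groups of genes by coding length, from at most 744 bases to at least 2514 bases, the median was -0.04, -0.01, 0.01, 0.03 and 0.05. With Gnl3 whole-cell replicate 3 the medians were 0.01, 0.04, 0.04, 0.03 and 0.03, so the order does not hold with it. In the shortest group 248 genes were lower and 54 higher at an unadjusted p under 0.05, and in the longest 29 were lower and 172 higher. The shortest group held 69 of the 82 ribosomal protein genes, and without them its median was still -0.04. Short mRNAs were the ones richer on ER ribosomes with either siRNA. The median log2 ratio of ER ribosome-bound to whole-cell RNA went from 0.36 in the shortest group to -0.54 in the longest with scramble siRNA, and from 0.29 to -0.49 with Gnl3 siRNA. Spearman's rho of interaction and coding length was 0.19 over all 14116 genes with a coding length and 0.32 over the 9170 of them at 10 CPM or more. Over the latter it was 0.036 with Gnl3 whole-cell replicate 3, given as a description across genes that share the same libraries. With transcript GC content rho was -0.056 without that library. In 5 equal groups by GC content the median interaction with it went from -0.18 at the lowest to 0.24 at the highest. The part of length in the values of the ribosomal protein, respiratory chain and nuclear pore lists was not tested.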

How the data were processed

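The authors deposited raw counts per gene, 1 library per file (55416 Ensembl gene IDs), with no normalization in the values. Per the submitters' processing notes the tools were STAR 2.7.9a, HTSeq 0.11.2 and DESeq2 (version not given in the sources used here), with build GRCm39. Symbols (52083 IDs), coding lengths and leaders came from GENCODE M21 (GRCm38), so no coordinates are given. Rows that name no gene were dropped; no-feature entries were 46.6% to 47.9% and not-unique entries 5.31% to 10.2% of a library among the 11.

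The interaction was tested in R 4.3.3 with edgeR 4.0.16 (filterByExpr, TMM, robust quasi-likelihood fit, no block), in 10 libraries, with Benjamini-Hochberg adjustment over all genes and calls at an adjusted p under 0.05. DESeq2 1.42.0 was an alternative. SE is the absolute log2 value divided by the square root of F. Culture ratios use CPM with a pseudocount of 0.1. The test was checked on simulated data with known interactions in genes at 10 CPM or more. It recovered 26 of 50 at 1.25-fold, 44 of 50 at 1.5-fold and 50 of 50 at 2-fold, with 6 false calls. Many shifts of 1.25-fold or less would thus not be called. P-values measure the spread between these samples. Where nothing else is said, replicates were taken as separate cultures.

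The same lysate gave both fractions, so numbers pair the fractions within an siRNA by design. Residuals of such pairs correlated at 0.057 to 0.11 over 9792 genes.

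The text names Gnl3, Nmd3, called genes (up to 12 a direction, at 10 CPM or more) and the smallest p in each list without calls. Iron genes, genes changed most on ER ribosomes and a few others with low p in a list were named after their values were seen. Samples, lists and rules were chosen with earlier results of these data known. Coding length from GENCODE stood in for protein length, and the planned classes of predicted membrane proteins were not made. The results of 2 genes are not reported here.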

Additional observations from a re-analysis of the deposited data

Results flagged for a closer look

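The change of Ftl1 after Gnl3 siRNA differed between ER ribosome-bound and whole-cell RNA by -0.37 on the log2 scale in the test of that difference itself (edgeR adjusted p = 0.000161, 10 libraries). Both ER ribosome-bound levels in scramble cells were above all 3 after Gnl3 siRNA. Since the gene was picked by its p, this order is no separate support, and the share of all genes so ordered is not given here. The difference rests on leaving out Gnl3 whole-cell replicate 3, in which Ftl1 was at 42.25 CPM.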

How the results depend on the processing

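The interaction kept 1 called gene, Ftl1, with other scalings, DESeq2 and a stricter filter. It gave 10 without a filter on low counts, 2 with the culture as a replicate block (Gnl3 and Ftl1), 3 with the replicate number as a block (with Rps28), 0 with Gnl3 whole-cell replicate 3, 0 with that library and the block, 0 with the Nmd3 siRNA libraries added (15 libraries) and 0 with all 17. Leaving out 1 library gave 1 to 37: 37 without scramble whole-cell replicate 2 (8 higher, 29 lower), 11 without Gnl3 ER ribosome-bound replicate 2, 7 without Gnl3 whole-cell replicate 2, and otherwise 1. Ftl1 was among the called genes in each of these leave-one-out fits. On ER ribosomes the 1048 genes became 1 with Gnl3 whole-cell replicate 3, 388 with 15 libraries and 1 with all 17, and 349 to 1327 with 1 library left out (349 and 478 without scramble ER ribosome-bound replicates 2 and 3, 647 without Gnl3 replicate 1). In whole-cell RNA the 383 became 1, 153 and 1, and 165 to 408 (165 and 246 without Gnl3 whole-cell replicates 1 and 2). The block changed no other call on a named gene.

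Of 861 values of 41 named genes under the alternatives, 810 kept direction and side of the threshold, 19 passed it, 1 lost it and 31 changed sign. All but 1 of these 31 came with Gnl3 whole-cell replicate 3 in the fit. With it alone, with all 17 libraries, and with it and the culture block, the values were 0.16, 0.16 and 0.69 (Ftl1), -0.39, -0.39 and -0.30 (Nmd3), 0.0726, 0.074 and 0.13 (Sec61g), 0.11, 0.11 and 0.23 (Polr2f), -0.0343, -0.0316 and -0.00885 (Iars), -0.67, -0.66 and -0.43 (mt-Co1), 0.18, 0.18 and 0.36 (Psmb5), -0.16, -0.15 and -0.0501 (Tsix), -0.18, -0.17 and -0.12 (Hmmr), and -0.21, -0.20 and -0.00629 (Bmpr2). Nmd3 ran from -0.0116 to 0.0895 with 1 library left out. Of 798 list medians 173 moved by more than the spread between cultures. The cause of these changes was not tested. The 2 scramble ER ribosome-bound libraries and 2 Gnl3 whole-cell libraries limit the precision, and under 1 CPM depth does.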

Other observations

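The interactions of other lists were as follows. YAP, SRF and actin cytoskeleton genes (47 tested) had 17 members called higher and 0 lower on ER ribosomes, and 9 higher and 0 lower in whole-cell RNA. Of all 17911 genes tested 594 were called higher and 454 lower on ER ribosomes, and 209 and 174 in whole-cell RNA. The median interaction of the YAP, SRF and actin list was 0.04, with 1 higher and 0 lower at an unadjusted p under 0.05. BMP, Id and Nodal signalling genes (31) had a median of 0.05, Wnt pathway genes (32) 0.07 and differentiation markers (24) 0.05. The last included Eomes, a germ layer transcription factor, at 0.58 (SE 0.19, adjusted p = 0.609). Interferon response genes (19) and nuclear-retained long noncoding RNAs (19) had -0.01 and -0.03, with 1 and 0 members higher and 0 lower at that p. Totipotent 2-cell-like genes (15) had 0.23 and fibroblast markers (14) 0.16, at levels too low for single genes to be read.

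The metallothionein Mt2, which binds zinc and copper, fell in both fractions. It was at 380.5 and 385.2 CPM on scramble ER ribosomes and at 267.9, 277.2 and 278.1 CPM after Gnl3 siRNA, against 277.4 to 297 CPM and 225.8 to 259 CPM in whole-cell RNA. Its interaction was -0.24 (SE 0.062, adjusted p = 0.357), and -0.28 with Gnl3 whole-cell replicate 3. Mt2 overlaps Gm45774 on the opposite strand, which had -0.27 (SE 0.06, adjusted p = 0.153), and the 2 cannot be told apart. Both were named after their values were seen.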
